A study of Drosophila melanogaster with 57 samples.

Results

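Females of double deletion 1, called DD1 here, lack both the gene of cystathionine β-synthase and that of cystathionine γ-lyase, and were compared with females of the control strain 58492. The rule took the whole-fly samples labelled female with genotype CBS/CSE(1) and those with genotype 58492, which gave 3 libraries of each, 6 of the 57 libraries of the series. The study sequenced polyadenylated RNA of Drosophila melanogaster strains with deletions of genes that produce hydrogen sulphide, in whole flies of both sexes and in thoraxes of the control and of 1 deletion strain. All flies used here were 5 days old, untreated, and kept at 23 °C with 20 flies per vial. DD1 females carry the deletions of CBS and CSE, each made with CRISPR/Cas9 by putting an mCherry reporter driven by the actin 5C promoter in place of the gene. The deletions were made in stock 58492, which expresses Cas9 from the transgene M{Act5C-Cas9.P.RFP-}ZH-2A and has the alleles y1, w1118 and DNAlig4169, and the injected flies were crossed out to a yw strain. DD1 was then derived from the strains CBS(5) and CSE(1) through crosses with balancer strains, so that it is a single derived strain whose background was not that of stock 58492 throughout, and the effect of the deletions cannot be told apart from that of the background in this comparison. The control females are stock 58492 itself, with the Cas9 transgene driven by the actin 5C promoter and the mutations of yellow, white and DNAlig4. A second strain with both deletions, DD2, came from CBS(8), an independent CBS deletion.

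Cystathionine β-synthase joins homocysteine and serine to cystathionine, and cystathionine γ-lyase cleaves cystathionine to cysteine, which together make up the transsulphuration pathway from methionine to cysteine. Cysteine feeds the synthesis of glutathione, the main thiol of the cell, and both enzymes can release hydrogen sulphide in side reactions. In adult female flies most of the RNA comes from the ovaries, the fat body, the gut and the muscles, so that a change in the share of a tissue moves many genes at once. In such bulk libraries fewer cells of a type and less RNA per cell cannot be told apart.

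The deleted genes went with the labels. Values are CPM, counts per 1000000 reads of the library size scaled by TMM (trimmed mean of M values), which sets the bulk of genes level between libraries, and differences are log2 fold changes of DD1 against control, with a standard error (SE) and a Benjamini-Hochberg adjusted p from edgeR's quasi-likelihood test, called at an adjusted p under 0.05. Cbs (FBgn0031148, chrX:21045138-21049096 in dm6), the gene of cystathionine β-synthase, had 1.05, 1.13 and 1.28 CPM in DD1 females, against 210.3, 193 and 212 CPM in control females, a log2 fold change of -7.46 (SE 0.151, adjusted p = 1.04e-16). Cth (FBgn0000566, chr2R:18627918-18629395), the gene of cystathionine γ-lyase, had 7.49, 9.37 and 7.16 CPM in DD1 females, against 123, 114 and 120.0 CPM in control females, a change of -3.89 (SE 0.120, adjusted p = 9.65e-14). The reads that remained on Cth were 171, 248 and 173 counts, above the level of Cbs in the same libraries. CG12279, the gene of mercaptopyruvate sulphurtransferase, which also yields hydrogen sulphide and is intact in DD1, had 13.3, 18.1 and 13.1 CPM in DD1 females, against 16.4, 13.4 and 15.4 CPM in control females, and the groups overlapped.

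The DD1 libraries held 22542467 to 26453870 counts on genes and the control libraries 19959502 to 22880443. No label says that the libraries of a group came from separate cultures, so the p-values measure the spread between these libraries only. Counts of 3 per library, used as the floor, were worth 0.113 to 0.131 CPM in DD1 and 0.127 to 0.158 CPM in control libraries, which covers counting error only. Replicate 2 of DD1 stood apart. It had counts on 14009 genes, against 12594 and 12762 in the other DD1 libraries and 12088 to 12459 in the control libraries, and 13755 genes after thinning to the smallest library of the fit. Of the 14009 genes, 1307 had counts in neither other DD1 library. For each of the other libraries, 205 to 511 genes had counts in it alone within its own group.

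Most genes that set replicate 2 apart were genes of males. In all, 472 genes were over 4-fold above both other DD1 libraries and the floor, and 459 of them were male-biased in the control strain. Their summed level was 2530 CPM in replicate 2, against 91.2 and 84.9 CPM in the other DD1 libraries and 83.6 to 134 CPM in control females, while control males had 78400 CPM. Across these genes the level in replicate 2 was a median 2.13% of that in control males, with quartiles of 1.76% and 2.94%. The seminal fluid gene Ebp, which forms part of the mating plug, had 0.0438, 198 and 0.166 CPM in DD1 females, against 0.149, 0.0424 and 0.0527 CPM in control females. The 7 male accessory gland markers summed to 0.263, 107.8 and 0.290 CPM in DD1 females, against 0.149, 0.127 and 0.211 CPM in control females. Of the 459 genes 50 passed the filter on low counts and 25 were called, so each count is also given without this library where it changes the reading. How male-biased RNA came into the library was not tested.

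Between DD1 and control females 3247 of 10548 genes tested were called, 30.8% of them. In DD1 females 1754 genes rose (16.6%) and 1493 fell (14.2%), and the log2 fold change was at least 1 in size for 905 that rose and 194 that fell. The groups did not overlap in 5891 genes, 55.8% of those tested, and in 3172 of those called. Without replicate 2 of DD1 the calls were 2282, with 1378 higher and 904 lower, of which 2169 were shared. Without control replicate 3 or DD1 replicate 3 they were 1689 and 1797. The balance of the directions depended on the scaling: with factors taken only from genes whose level in control female thoraxes was no lower than in whole control females, the median over all genes moved to -0.53 and the calls became 663 higher and 3147 lower. With upper-quartile factors that median was 0.11. No gene was called in opposite directions under TMM over all genes and the thorax-based scaling. Under both, 663 genes rose (6.29%) and 1493 fell (14.2%), where the downward shift of all genes by itself keeps lower calls and removes small higher ones. The counts of gene groups that follow are given for both scalings. Beside them stand those over all 10548 genes, 1754 higher and 1493 lower, or 663 and 3147 with the thorax-based scaling. Control whole libraries helped choose the thorax genes.

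The direction of a change went with the tissue in which a gene is active. Genes tested were put in 5 equal classes by the ratio of their level in whole MST deletion females to that in control thoraxes, libraries outside this comparison. In the most thorax-rich class 32.7% of genes rose and 2.32% fell in DD1 females, with a median log2 fold change of 0.64. In the class richest outside the thorax 2.09% rose and 28.4% fell, with a median of -0.32. Without replicate 2 of DD1 these medians were 0.71 and -0.34, and with the thorax-based scaling 0.08 and -0.88. The class richest outside the thorax took 28.2%, 27.4% and 25.3% of the counts in DD1 females, against 32.1%, 33.8% and 32.2% in control females, so that every DD1 library was lower. The thorax-rich class took 11.4%, 11.5% and 14.0% in DD1 females, against 8.90%, 8.46% and 6.55% in control females.

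**Figure D1:**
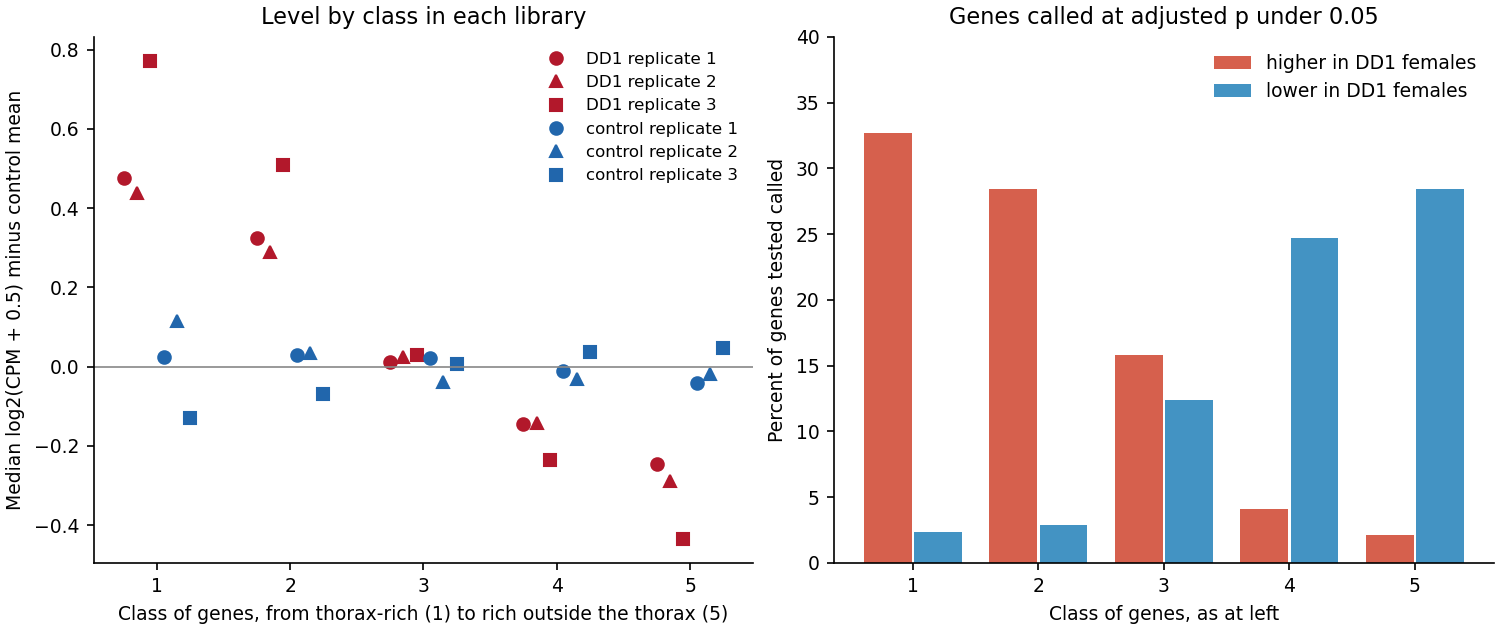
Genes tested in 5 classes by tissue, from thorax-rich (1) to rich outside the thorax (5); at left the median over the genes of a class of log2(CPM + 0.5) minus the mean of the control libraries, 1 point for each library, and at right the percent of genes in each class called higher or lower in DD1 females. In class 1 all DD1 libraries lie above all control libraries and in class 5 all lie below, and the called genes go from 32.7% higher in class 1 to 28.4% lower in class 5.

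Marker genes of tissues were summed in each library, and the sums did not all move alike. The 9 ovary markers, among them oskar and the eggshell genes, were all detected and summed to 3887, 5995 and 3268 CPM in DD1 females, against 7774, 4558 and 4531 CPM in control females, with overlap between the groups, and 2 of them fell. The 3 yolk protein genes summed to 17220, 18500 and 21370 CPM in DD1 females, against 17720, 11350 and 11490 CPM in control females, again with overlap. Flight muscle, photoreceptor, Malpighian tubule, hemocyte, midgut and fat body markers each summed higher in every DD1 library than in every control library, and the neuron markers overlapped. All marker sums use the scaling over all genes. They were not taken with the thorax-based scaling, where the median over all genes was -0.53, so whether the groups stay apart there is not shown. Of the 6 midgut markers 2 rose and 0 fell, and of the 3 fat body markers 1 rose and 1 fell. The fat body sum was nearly all apolpp. Lsp2 of the same list had 3.33, 0.567 and 2.28 CPM in DD1 females, against 38.9, 2.25 and 44.4 CPM in control females. The 5 flight muscle markers summed to 704, 745 and 901 CPM in DD1 females, against 368, 489.5 and 305 CPM in control females, and 2 of them rose. The 5 Malpighian tubule markers summed to 307, 305 and 414 CPM in DD1 females, against 120.1, 129 and 108 CPM in control females, and 4 rose. The 5 hemocyte markers summed to 441, 479 and 608 CPM in DD1 females, against 164, 208.5 and 133 CPM in control females, with 4 higher and NimC1 lower. Antennal markers went the other way and are described with the odorant binding proteins. The part of tissue shares in the gene results that follow was not tested.

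**Figure D2:**
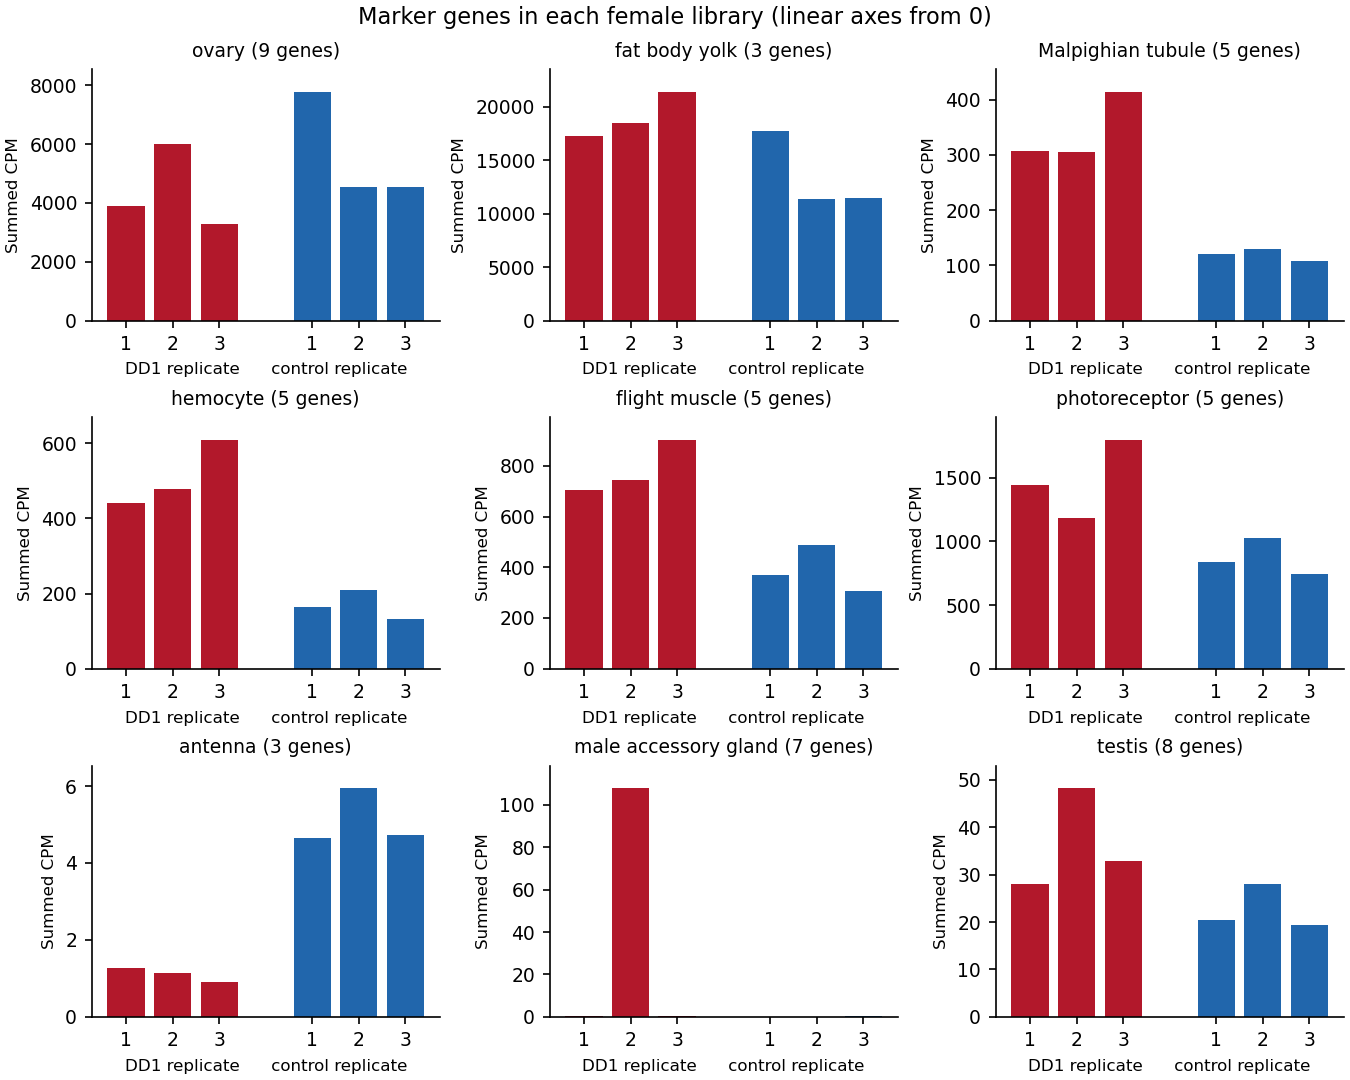
Summed CPM of marker genes of 9 tissues, with the scaling over all genes, in each DD1 library (red) and each control library (blue), on linear axes from 0. Malpighian tubule, hemocyte, flight muscle and photoreceptor markers are among those higher in all DD1 libraries, antennal markers are lower in all of them, ovary and yolk markers overlap, and male accessory gland markers reach 107.8 CPM in DD1 replicate 2 alone.

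The largest increases were in genes close to silent in control females. CG32379 (chr3L:7396355-7398208) had 3.94, 6.39 and 5.05 CPM in DD1 females, against 0, 0 and 0 CPM in control females, and was at least 35.5-fold higher, counting 3 reads for each control library. Cyp4p2 (chr2R:9237512-9239831), a cytochrome P450, had 12.05, 9.45 and 13.4 CPM in DD1 females, against 0.149, 0.0848 and 0.105 CPM in control females, a ratio of 104 over the summed counts (95% interval 50.02 to 258, exact, counting error only). These levels did not overlap, with adjusted p of 8.6e-06 and 1.95e-06. The gene mat (chr3L:902898-903810) was the most abundant of the 12 genes with the largest increase, at 202, 186 and 275 CPM in DD1 females, against 10.2, 5.09 and 7.95 CPM in control females, a log2 fold change of 4.84 (SE 0.353, adjusted p = 6.3e-08). The gene tut, tumorous testis, known for its part in the male germline, had 11.0, 9.64 and 5.92 CPM in DD1 females, against 0.149, 0.382 and 0.263 CPM in control females, a change of 5.01 (SE 0.420, adjusted p = 3.7e-07). The neighbouring genes CG32686 (chrX:10371717-10375316) and CG32681 (chrX:10376651-10381352) moved alike in DD1 females. CG32686 had 5.30, 5.52 and 5.76 CPM in DD1 females, against 0.149, 0.382 and 0.105 CPM in control females, and CG32681 had 5.91, 6.61 and 8.03 CPM in DD1 females, against 0.248, 0.636 and 0.158 CPM in control females, with changes of 4.62 and 4.23 and adjusted p of 2.41e-06 and 1.81e-06. The gene phu had 6.22, 7.48 and 5.71 CPM in DD1 females, against 0.0991, 0.339 and 0.0527 CPM in control females and rose by 5.18 (adjusted p = 0.000324). CG16762 had 46.9, 31.3 and 92.2 CPM in DD1 females, against 4.11, 4.37 and 1.11 CPM in control females and rose by 4.13 (adjusted p = 2.41e-06). In each of these 8 genes every DD1 library was above every control library, which was a condition for naming them.

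The other 4 of the 12 were high in replicate 2 of DD1 above all. FBgn0038762, for which the annotation used gave no symbol, had 0.876, 31.3 and 0.248 CPM in DD1 females, against 0.149, 0.127 and 0.158 CPM in control females, a ratio of 81.2 over the summed counts (95% interval 42.6 to 178, counting error only) and a call at adjusted p = 0.00298, with 829 of the 855 counts in replicate 2. CG34034 had 0.701, 19.5 and 0.994 CPM in DD1 females, against 0.297, 0.170 and 0.316 CPM in control females, a change of 4.76 (SE 1.14, adjusted p = 0.00596). Both are abundant in males, at 1884 to 2144 and 268 to 309 CPM in the control, and without replicate 2 neither was called, with changes of 1.92 (adjusted p = 0.0644) and 1.70 (adjusted p = 0.133). TotA and TotM, secreted Turandot proteins known to be induced by stress, had 38.4, 209.8 and 84.6 CPM and 14.1, 110.3 and 14.2 CPM in DD1 females, against 7.14, 4.75 and 5.42 CPM and 3.82, 1.27 and 2.58 CPM in control females. They rose by 4.27 (adjusted p = 0.000304) and 4.19 (adjusted p = 0.00468), and by 3.41 (adjusted p = 0.00136) and 2.47 (adjusted p = 0.0417) without replicate 2. Control males had 35.2 to 66.7 CPM of TotA and 3.77 to 4.47 CPM of TotM.

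Among decreases, CG43055 (chr2L:4411155-4411824) was the furthest. It had no counts in any DD1 library, against 50.6, 7.63 and 51.5 CPM in control females, at least 297-fold lower (adjusted p = 4.82e-06), although control replicate 2 was well below the other control libraries. Obp83a, an odorant binding protein of the antenna, had 0.131, 0.189 and 0.0414 CPM in DD1 females, against 5.11, 5.77 and 5.32 CPM in control females, a change of -5.404 (SE 0.661, adjusted p = 2.02e-05). The noncoding RNA lncRNA:CR43837 (chrX:6995882-6997799) had 1.84, 1.47 and 1.86 CPM in DD1 females, against 41.6, 44.1 and 56.7 CPM in control females, a change of -4.78 (SE 0.303, adjusted p = 1.08e-08). In these 3 genes the levels in DD1 females were nearly gone and the groups lay far apart. The germline gene gNacalpha, of a family that binds nascent peptides on the ribosome, had 4.34, 2.68 and 6.29 CPM in DD1 females, against 73.6, 101 and 68.2 CPM in control females, a change of -4.19 (SE 0.636, adjusted p = 0.000183). The cell adhesion genes rst and dpr6, both of the immunoglobulin superfamily, fell as well. rst (chrX:2950399-2973834) had 2.19, 1.59 and 2.28 CPM in DD1 females, against 22.0, 25.6 and 19.6 CPM in control females, a change of -3.47 (SE 0.454, adjusted p = 4.49e-05). dpr6 (chr3L:9974651-10139360) had 6.09, 6.24 and 7.95 CPM in DD1 females, against 38.8, 47.7 and 54.8 CPM in control females, a change of -2.80 (SE 0.216, adjusted p = 1.28e-07). No overlap between the groups was a condition for naming the genes here.

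The deleted genes Cbs and Cth are not counted among the 12. The remaining 6 of the 12 genes with the largest decrease changed by -4.31 to -2.83. The noncoding RNA lncRNA:CR45128 had 0.438, 0.567 and 0.331 CPM in DD1 females, against 8.13, 9.63 and 9.11 CPM in control females (change -4.31, adjusted p = 9.13e-09). ChLD3, a gene of a chitin deacetylase-like protein, had 0.307, 0.454 and 0.248 CPM in DD1 females, against 5.60, 6.57 and 4.06 CPM in control females (change -3.98, adjusted p = 2.52e-06). The C-type lectin gene lectin-37Da had 0.745, 0.378 and 0.704 CPM in DD1 females, against 10.9, 3.31 and 7.64 CPM in control females (change -3.57, adjusted p = 0.00038). CG11700, CG18088 and CG6508 were the others, with changes of -3.97, -3.04 and -2.83 and adjusted p of 4.8e-07, 0.00085 and 0.00702. CG6508 was the least even, with 1.40, 5.48 and 1.04 CPM in DD1 females, against 30.9, 13.0 and 12.9 CPM in control females. The 12 increases kept their calls under the thorax-based scaling, as did the 12 decreases, which that scaling enlarges.

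**Figure D3:**
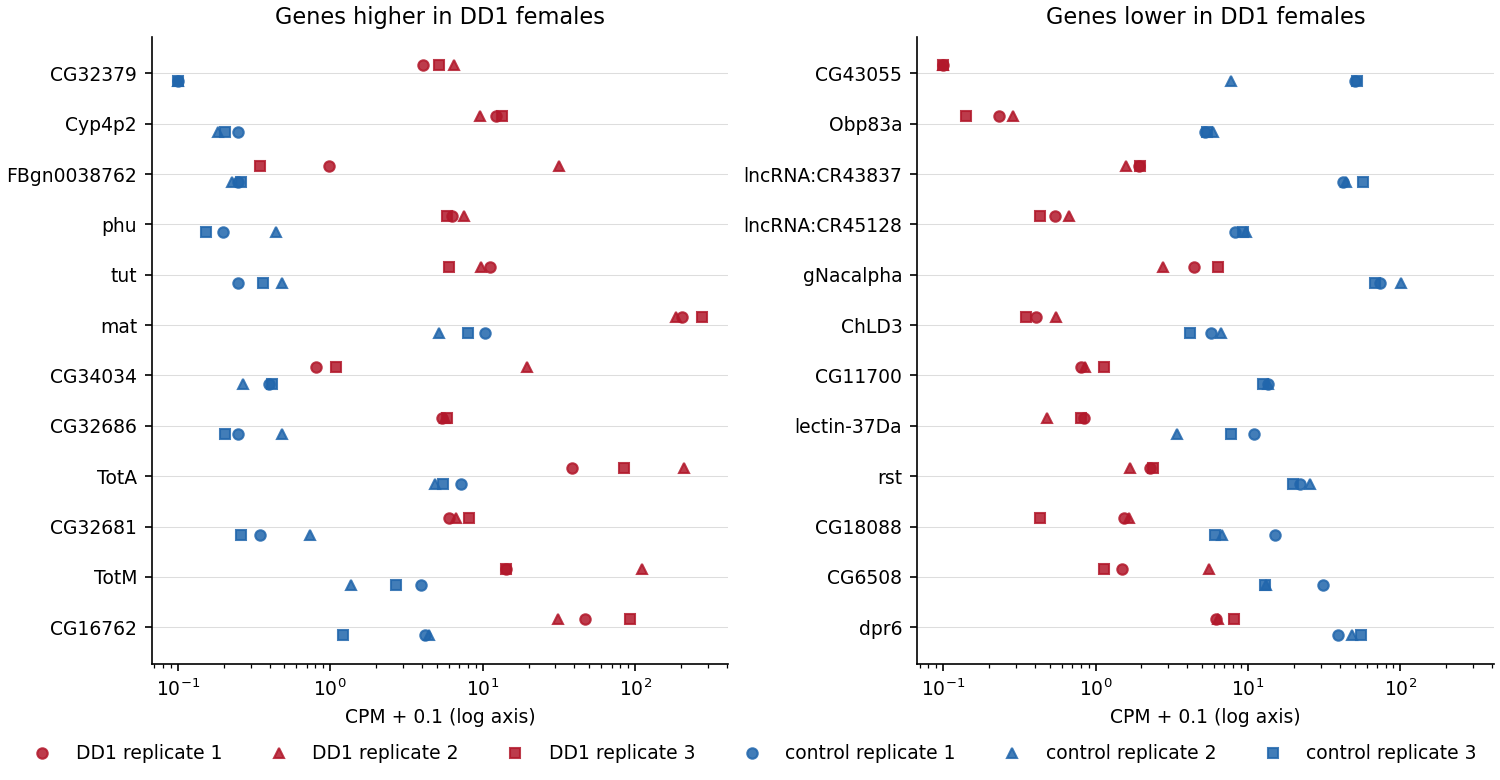
CPM + 0.1 on a log axis in each library for the 12 genes with the largest increase (left) and the 12 with the largest decrease other than Cbs and Cth (right) in DD1 females, red for DD1 and blue for control, with a symbol for each replicate. No overlap between the groups was a condition for naming these genes. In FBgn0038762, CG34034, TotA and TotM replicate 2 of DD1 lies above the other DD1 libraries.

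Around the deleted enzymes, 3 of the 10 methionine cycle genes tested rose and 1 fell, against 1 and 5 with the thorax-based scaling. These were 40% of the group, against 30.8% of all genes. Bhmt, named for betaine-homocysteine S-methyltransferase, had 93.7, 100.3 and 104 CPM in DD1 females, against 68.4, 55.3 and 54.3 CPM in control females, a change of 0.74 (SE 0.125, adjusted p = 0.000472), which the thorax-based scaling reduced to 0.18. Sam-S, the S-adenosylmethionine synthetase, had 618, 576 and 622 CPM in DD1 females, against 532, 487 and 500.04 CPM in control females, a change of 0.26 (SE 0.0882, adjusted p = 0.0348) that turned to -0.31 with the thorax-based scaling. AhcyL2 and AhcyL1, relatives of the enzyme that splits S-adenosylhomocysteine, went opposite ways and kept their calls under both scalings. AhcyL2 had 15.8, 15.005 and 17.4 CPM in DD1 females, against 6.79, 8.86 and 5.85 CPM in control females (change 1.16, adjusted p = 0.00178), and AhcyL1 119.6, 110.4 and 112 CPM in DD1 females, against 135.5, 131.5 and 135 CPM in control females (change -0.23, adjusted p = 0.0231). The glutathione synthesis and thiol repair group had 4 of 10 members higher and 0 lower, and 1 higher and 2 lower with the thorax-based scaling. Its MsrA, which repairs oxidized methionine in proteins, had 214, 269 and 289 CPM in DD1 females, against 64.9, 76.8 and 47.7 CPM in control females, a change of 2.03 (SE 0.224, adjusted p = 6.86e-06) that held at 1.48 with the thorax-based scaling. Gclm and Gclc, the subunits of glutamate-cysteine ligase that starts glutathione synthesis, changed by 0.74 and 0.34 (adjusted p = 0.000284 and 0.0456), and by 0.18 and -0.22 with the thorax-based scaling, where neither was called. MsrA was the 1 member of this group called higher under both scalings.

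Glutathione transferases couple glutathione to foreign compounds. Of 32 transferase genes 12 rose and 2 fell, with a median of 0.20 against 0.03 over all genes, and 7 rose and 6 fell with the thorax-based scaling, where the median was -0.35. GstD1, the most abundant of those named here, had 522, 559.9 and 470.5 CPM in DD1 females, against 153, 105 and 138 CPM in control females, a change of 1.97 (SE 0.205, adjusted p = 3.21e-06). GstD9 had 15.3, 15.5 and 14.9 CPM in DD1 females, against 4.26, 4.41 and 4.27 CPM in control females (change 1.82, adjusted p = 0.000339), and GstD3 19.3, 17.3 and 18.0 CPM in DD1 females, against 6.94, 5.85 and 5.16 CPM in control females (change 1.60, adjusted p = 4.27e-05). GstD2 and GstD5 rose as well, while GstD7, GstD8 and GstD10 of the same delta class were not called, at changes of -0.37, -0.09 and -0.61. GstE13 fell, with 29.4, 33.3 and 28.1 CPM in DD1 females, against 47.6, 42.6 and 48.2 CPM in control females (change -0.61, adjusted p = 0.000754). The GstD genes lie in a cluster of similar copies, and reads shared between copies could not be assigned from the counts.

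Other detoxifying enzymes gave the same split between scalings. Of 75 cytochrome P450 genes 24 rose and 6 fell, which became 12 and 16 with the thorax-based scaling. The majority turned over all genes too, from 1754 higher and 1493 lower to 663 and 3147. Cyp6a2, known from insecticide-resistant flies, had 59.3, 57.7 and 60.7 CPM in DD1 females, against 4.96, 4.96 and 4.11 CPM in control females, a change of 3.66 (SE 0.199, adjusted p = 1.27e-09). Cyp4p1 moved against its paralog Cyp4p2, with 4.69, 4.42 and 6.50 CPM in DD1 females, against 35.4, 28.0 and 24.2 CPM in control females, a change of -2.49 (SE 0.286, adjusted p = 9.1e-06). Both calls held under the thorax-based scaling. Of 31 UDP-glycosyltransferase genes 13 rose and 3 fell, against 3 and 4 with the thorax-based scaling. Ugt35A1 had 42.7, 37.5 and 45.6 CPM in DD1 females, against 19.9, 19.4 and 16.6 CPM in control females (change 1.17, adjusted p = 9.23e-07) and Ugt301D1 22.2, 14.6 and 25.2 CPM in DD1 females, against 46.6, 39.8 and 43.5 CPM in control females (change -1.07, adjusted p = 0.000221). Among 13 genes of peroxide and superoxide removal 4 rose and 0 fell, or 2 and 4 with the thorax-based scaling. The peroxiredoxin Prx6b had 17.6, 20.1 and 16.6 CPM in DD1 females, against 5.402, 3.31 and 4.48 CPM in control females, a change of 2.04 (SE 0.227, adjusted p = 6.93e-06) (1.49 with the thorax-based scaling). Catalase (Cat) changed by 0.45 (adjusted p = 0.0445), and by -0.12 without a call with the thorax-based scaling.

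Stress proteins changed in part. Of the Turandot genes 5 were tested and 5 rose, 4 with the thorax-based scaling and 4 without replicate 2. TotC had 38.9, 196 and 70.8 CPM in DD1 females, against 9.22, 5.47 and 7.005 CPM in control females, a change of 3.82 (SE 0.677, adjusted p = 0.000706), and TotX 10.3, 18.9 and 12.8 CPM in DD1 females, against 2.87, 2.33 and 4.48 CPM in control females, a change of 2.13 (SE 0.396, adjusted p = 0.00101), and in both replicate 2 was the highest. TotA and TotC are similar copies, between which the counting may have split reads. TotB had the lowest level, with 0.0438, 0.416 and 0.166 CPM in DD1 females, against 0, 0.0848 and 0 CPM in control females. Heat shock genes were divided, with 3 of 11 higher and 2 lower, and 2 and 2 with the thorax-based scaling. Hsp68, an inducible chaperone of the Hsp70 family, had 9.94, 14.6 and 16.4 CPM in DD1 females, against 1.64, 1.87 and 0.843 CPM in control females, a change of 3.22 (SE 0.369, adjusted p = 8.97e-06). The small heat shock gene Hsp26, which is active in the ovary, had 847, 702 and 689 CPM in DD1 females, against 1361, 1206 and 1538 CPM in control females, a change of -0.88 (SE 0.231, adjusted p = 0.00994). Neither gene overlapped between the groups.

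Defence genes gave mixed counts. Of 11 bomanin and daisho genes, short peptides of the Toll pathway, 6 rose, 0 fell and 5 were not called, where 16.6% of all genes rose, and 3 rose and 1 fell with the thorax-based scaling. BomS6 had 119.9, 101 and 112 CPM in DD1 females, against 39.4, 26.5 and 44.4 CPM in control females (change 1.60, adjusted p = 2.19e-05) and BomS3 132, 110.1 and 137 CPM in DD1 females, against 41.4, 51.4 and 42.6 CPM in control females (change 1.48, adjusted p = 4.03e-05). All 6 lysozyme genes tested were called higher, 5 with the thorax-based scaling, where LysP was not called, and 5 without replicate 2, where LysC was not. The counts of LysC lay in replicate 2, at 0, 47.4 and 0.166 CPM in DD1 females, against 0.0991, 0 and 0 CPM in control females. LysX had 7.88, 8.69 and 13.4 CPM in DD1 females, against 4.16, 3.05 and 2.16 CPM in control females (change 1.67, adjusted p = 0.000152) and LysB 119.5, 163 and 144 CPM in DD1 females, against 59.2, 41.6 and 37.6 CPM in control females (change 1.62, adjusted p = 0.000242). LysB, LysC, LysD and LysE are near-identical copies, so the reads of each are uncertain. Of 9 antimicrobial peptide genes Def rose, with 7.75, 8.31 and 7.95 CPM in DD1 females, against 5.01, 4.199 and 3.11 CPM in control females, and AttA and Dro fell. AttA, an attacin, had 0.263, 0.831 and 0.0414 CPM in DD1 females, against 1.88, 1.103 and 1.63 CPM in control females (change -1.97, adjusted p = 0.028). With the thorax-based scaling 0 antimicrobial peptide genes rose and 3 fell, so that Def lost its call as higher. Peptidoglycan recognition genes had 3 of 12 higher and 0 lower, but 1 and 5 with the thorax-based scaling.

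Genes of the Malpighian tubule, the insect kidney, and of hemocytes were among the groups that rose under both scalings. Of 14 tubule transport and receptor genes 9 rose and 0 fell, with a median of 1.13, and 8 rose and 1 fell with the thorax-based scaling. Irk3, an inward rectifier potassium channel, had 42.01, 48.1 and 69.5 CPM in DD1 females, against 4.06, 9.29 and 3.48 CPM in control females, a change of 3.23 (SE 0.369, adjusted p = 8.72e-06). CapaR, the receptor of the Capa neuropeptides that drive fluid secretion, had 4.34, 2.80 and 4.06 CPM in DD1 females, against 1.04, 0.806 and 0.737 CPM in control females, a change of 2.11 (SE 0.325, adjusted p = 0.000217). Every DD1 library exceeded every control library in both genes. Of 6 urate and aldehyde oxidation genes 4 rose and 1 fell, with a change of -2.94 in the lower one. With the thorax-based scaling 2 of them rose and 1 fell. Uro, the tubule's urate oxidase, had 63.1, 65.2 and 90.0 CPM in DD1 females, against 11.3, 10.8 and 8.16 CPM in control females, a change of 2.85 (SE 0.532, adjusted p = 0.00105), and AOX1, an aldehyde oxidase, 331, 259.5 and 397 CPM in DD1 females, against 149.9, 134 and 138 CPM in control females, a change of 1.23 (SE 0.152, adjusted p = 2.2e-05). Of 13 hemocyte and basement membrane genes 9 rose and 1 fell, 7 and 1 with the thorax-based scaling. Col4a1, a collagen IV chain, had 298, 363 and 394 CPM in DD1 females, against 102, 131 and 78.7 CPM in control females (change 1.76, adjusted p = 0.000662), and the hemocyte gene Hml 89.8, 67.3 and 134 CPM in DD1 females, against 30.2, 38.8 and 26.9 CPM in control females (change 1.60, adjusted p = 0.00083). NimC1, a receptor for phagocytosis on the same cells, was the exception, with 1.66, 1.59 and 3.19 CPM in DD1 females, against 8.13, 7.34 and 8.01 CPM in control females (change -1.86, adjusted p = 0.000864).

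Secreted growth factors and the breakdown of tyrosine followed. Of 6 imaginal disc growth factor genes, relatives of chitinases, 4 rose and 0 fell under both scalings. Idgf2 had 124, 122 and 136 CPM in DD1 females, against 47.9, 49.8 and 37.6 CPM in control females, a change of 1.496 (SE 0.139, adjusted p = 1.09e-06), and Idgf1 58.7, 64.4 and 72.9 CPM in DD1 females, against 17.3, 26.5 and 19.1 CPM in control females, a change of 1.64 (SE 0.216, adjusted p = 4.85e-05). Of 7 genes of tyrosine and phenylalanine breakdown 6 rose and 0 fell, or 5 and 0 with the thorax-based scaling. The dioxygenase Hpd had 93.6, 82.7 and 104 CPM in DD1 females, against 28.4, 37.0 and 36.1 CPM in control females (change 1.46, adjusted p = 0.000547), and the hydrolase Faa of the final step 13.4, 14.0 and 16.1 CPM in DD1 females, against 5.01, 5.30 and 4.003 CPM in control females (change 1.60, adjusted p = 0.000211). The control libraries were lower in each of these 4 genes without overlap.

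Digestive enzymes and stores rose mainly under the scaling over all genes. Of 13 amylase and maltase genes 8 rose and 0 fell, 2 and 1 with the thorax-based scaling. Mal-A1, a gut maltase, had 582.3, 305 and 528 CPM in DD1 females, against 134, 71.4 and 282 CPM in control females, a change of 1.54 (SE 0.353, adjusted p = 0.0045), and control replicate 3 came close to the lowest DD1 library. Digestive proteases had 7 of 26 higher and 0 lower, and 3 and 1 with the thorax-based scaling. Fat synthesis and lipase genes had 6 of 14 higher and 1 lower, and 1 and 2 with the thorax-based scaling. The lipase gene bmm, known as brummer, was the lower one, with 80.7, 62.6 and 73.2 CPM in DD1 females, against 108, 91.0 and 101 CPM in control females (change -0.47, adjusted p = 0.012). The ferritin subunit Fer2LCH had 686, 594 and 703 CPM in DD1 females, against 434, 411 and 401 CPM in control females, a change of 0.67 (SE 0.0970, adjusted p = 0.000123) that shrank to 0.10 without a call with the thorax-based scaling. Of 28 cuticle protein genes 10 rose and 0 fell, 5 and 0 with the thorax-based scaling. Flight muscle sarcomere genes had 3 of 22 higher, 1 without replicate 2, and with the thorax-based scaling 0 rose and 2 fell.

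Germline genes fell in part. Of 17 germ plasm and oocyte patterning genes 0 rose and 5 fell, 0 and 11 with the thorax-based scaling. nanos, a translational repressor of the posterior pole, had 343, 314 and 247 CPM in DD1 females, against 619, 569 and 682 CPM in control females, a change of -1.05 (SE 0.223, adjusted p = 0.00276). BicD, an adaptor in the transport of RNA into the oocyte, had 272, 265 and 232 CPM in DD1 females, against 376, 368 and 385 CPM in control females, a change of -0.55 (SE 0.120, adjusted p = 0.00317). Of 19 piRNA pathway genes, which silence transposons, 1 rose and 8 fell, 0 and 4 without replicate 2, and 0 and 14 with the thorax-based scaling. squ had 54.1, 40.5 and 51.6 CPM in DD1 females, against 99.7, 97.1 and 116 CPM in control females (change -1.099, adjusted p = 0.00155) and piwi 186, 155 and 173 CPM in DD1 females, against 218, 225 and 225 CPM in control females (change -0.38, adjusted p = 0.0135), without overlap in either. Chorion and vitelline membrane genes had 1 of 22 lower, Cp7Fa, with 14.98, 37.8 and 7.33 CPM in DD1 females, against 144, 92.5 and 62.5 CPM in control females, and 4 lower without replicate 2. Of 3 yolk protein genes 0 were called higher and 0 lower, and of 11 replication helicase genes likewise 0 and 0. With the thorax-based scaling 0 chorion and vitelline membrane genes rose and 5 fell. The counts there were 0 and 0 for the yolk protein genes and 0 and 1 for the replication helicase genes.

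Of 78 cytosolic ribosomal protein genes 38 rose and 0 fell, where 16.6% of all genes rose, but 17 rose without replicate 2, and 2 rose and 7 fell with the thorax-based scaling. RpL17 had 1214, 1375 and 1226 CPM in DD1 females, against 813, 821 and 896 CPM in control females (change 0.59, adjusted p = 0.00145), and replicate 2 was the highest. Of 70 mitochondrial ribosomal protein genes 2 rose and 15 fell, where 14.2% of all genes fell, with a median of -0.09, and 53 were not called. The counts were 0 and 7 without replicate 2, and 0 and 30 with the thorax-based scaling. mRpL47 had 49.1, 45.2 and 47.1 CPM in DD1 females, against 69.9, 56.8 and 67.4 CPM in control females (change -0.46, adjusted p = 0.00312). Of 31 proteasome genes 0 rose and 10 fell, 7 without replicate 2 and 12 with the thorax-based scaling. The lid subunit Rpn8 had 163, 150.5 and 146 CPM in DD1 females, against 210.3, 187 and 207 CPM in control females (change -0.40, adjusted p = 0.0101). Respiratory chain genes had 7 of 67 higher and 2 lower, but 1 and 1 without replicate 2, and 0 and 14 with the thorax-based scaling. In each gene of these groups named here the change was under 0.7 in size on the log2 scale. Other members changed by more, up to 3.18 among the cytosolic ribosomal protein genes and 1.49 among the respiratory chain genes.

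**Figure D4:**
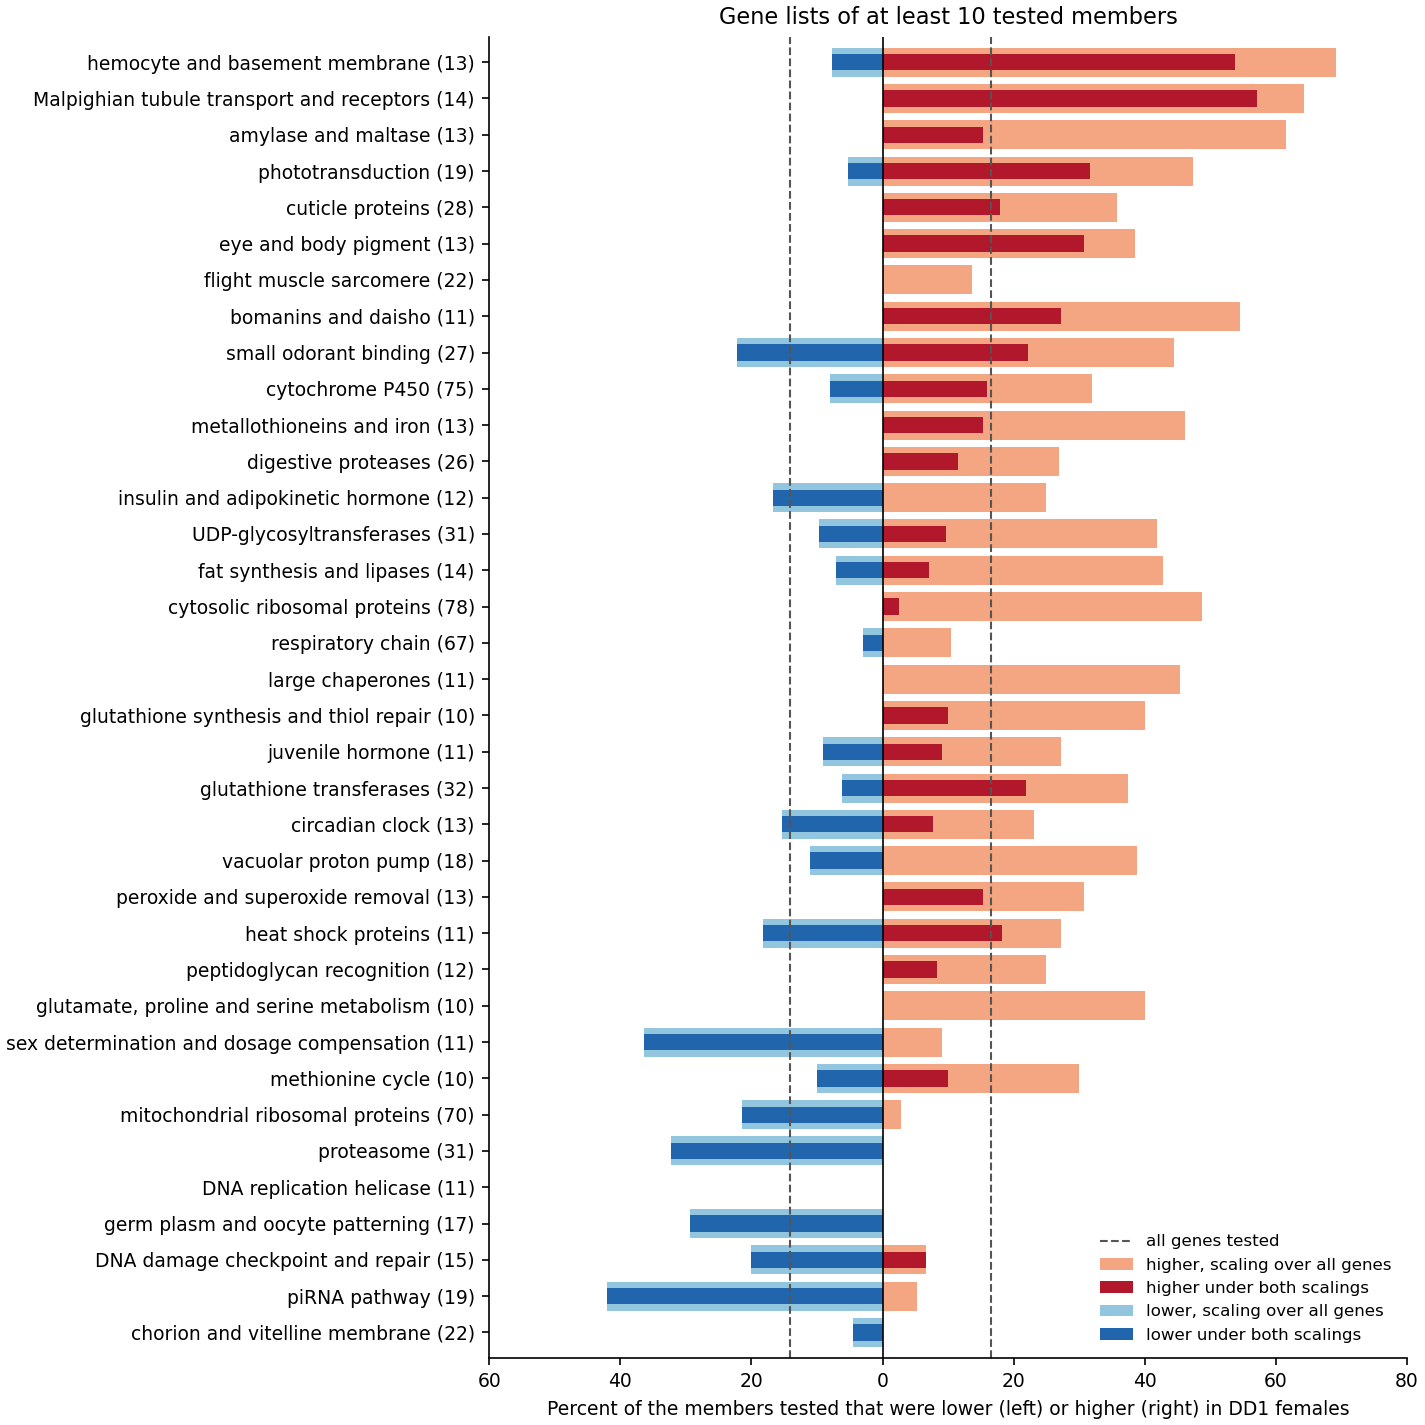
Percent of the tested members of each gene list (number in brackets, lists of at least 10) that were lower (left) or higher (right) in DD1 females, light bars for the scaling over all genes, dark bars for members called under both scalings, and dashed lines for all genes tested (14.2% lower, 16.6% higher). Malpighian tubule and hemocyte lists keep most of their higher calls under both scalings, the cytosolic ribosomal list keeps 2 of 38, and lower calls are kept because the second scaling moves all genes down.

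Genes of the eye rose in part. Of 19 phototransduction genes 9 rose and 1 fell, 6 and 1 with the thorax-based scaling. Rh6, a green-sensitive opsin, had 5.48, 5.82 and 4.76 CPM in DD1 females, against 0.297, 0.382 and 0.737 CPM in control females, a change of 3.51 (SE 0.669, adjusted p = 0.00125). The cation channel trpl had 67.0, 55.4 and 80.9 CPM in DD1 females, against 20.4, 31.5 and 19.4 CPM in control females, a change of 1.51 (SE 0.284, adjusted p = 0.00114). Of 13 circadian clock genes 3 rose and 2 fell, and 1 rose and 4 fell with the thorax-based scaling. The neuropeptide gene Pdf of the clock neurons had 3.07, 4.46 and 3.93 CPM in DD1 females, against 1.44, 1.27 and 0.790 CPM in control females, a change of 1.70 (SE 0.334, adjusted p = 0.00155). Of the markers in the control stock's genotype, y and w were low in all 6 libraries. y had 0.219, 0.454 and 0.663 CPM in DD1 females, against 0, 0.0424 and 0.0527 CPM in control females and w 0.569, 0.529 and 0.994 CPM in DD1 females, against 0.248, 0.339 and 0.211 CPM in control females, with adjusted p of 0.011 and 0.0458, and without replicate 2 w was not called (adjusted p = 0.0512).

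Odorant binding proteins went both ways. Of 27 small odorant binding genes 12 rose and 6 fell, or 6 and 7 with the thorax-based scaling. Obp99c, which is active beyond the antenna, had 318, 288 and 381 CPM in DD1 females, against 134, 103 and 101 CPM in control females, a change of 1.55 (SE 0.249, adjusted p = 0.000316). Genes known from the antenna were among the lower ones. Obp83b, the neighbour of Obp83a, had 0, 0.227 and 0 CPM in DD1 females, against 3.87, 4.11 and 2.95 CPM in control females, a change of -5.41 (SE 0.813, adjusted p = 0.000169), and Obp59a had no counts in DD1 females, against 0.843, 1.06 and 0.474 CPM in control females (adjusted p = 0.000213). The antennal markers behaved alike, and all 3 were called. Orco, the coreceptor of odorant receptors, had 1.01, 0.454 and 0.497 CPM in DD1 females, against 2.48, 3.31 and 2.16 CPM in control females, a change of -2.03 (SE 0.507, adjusted p = 0.00762). lush, a binding protein for a male pheromone, had 0.131, 0.378 and 0.290 CPM in DD1 females, against 1.14, 1.40 and 0.895 CPM in control females, a change of -2.07 (SE 0.458, adjusted p = 0.00359). Summed, the 3 markers had 1.27, 1.13 and 0.911 CPM in DD1 females, against 4.66, 5.94 and 4.74 CPM in control females. Snmp1, a membrane protein of pheromone-sensing neurons that is also found outside the antenna, had 6.70, 6.58 and 8.07 CPM in DD1 females, against 6.25, 7.21 and 8.95 CPM in control females, with overlap.

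The low antennal level was present in the other strains with a CBS deletion as well. Obp83a had 0.0481 to 0.932 CPM in DD2 females, 0.0347 to 0.135 CPM in CBS(5) and 0 to 0.104 CPM in CBS(8), against 7.29 to 8.33 CPM in females of the CSE deletion, 4.14 to 7.62 CPM in females of the MST deletion and 5.11 to 5.77 CPM in control females. DD1 and CBS(5) did not differ by a call, with a change of 0.80 (adjusted p = 0.79). These strains are compared with the same control libraries. In males Obp83a had 0 to 0.201 CPM in DD1, against 34.3 to 38.9 CPM in control. Photoreceptor markers, also of the head, summed to 1440, 1187 and 1795 CPM in DD1 females, against 841, 1027 and 745.5 CPM in control females, so that the DD1 libraries were higher there with the scaling over all genes.

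**Figure D5:**
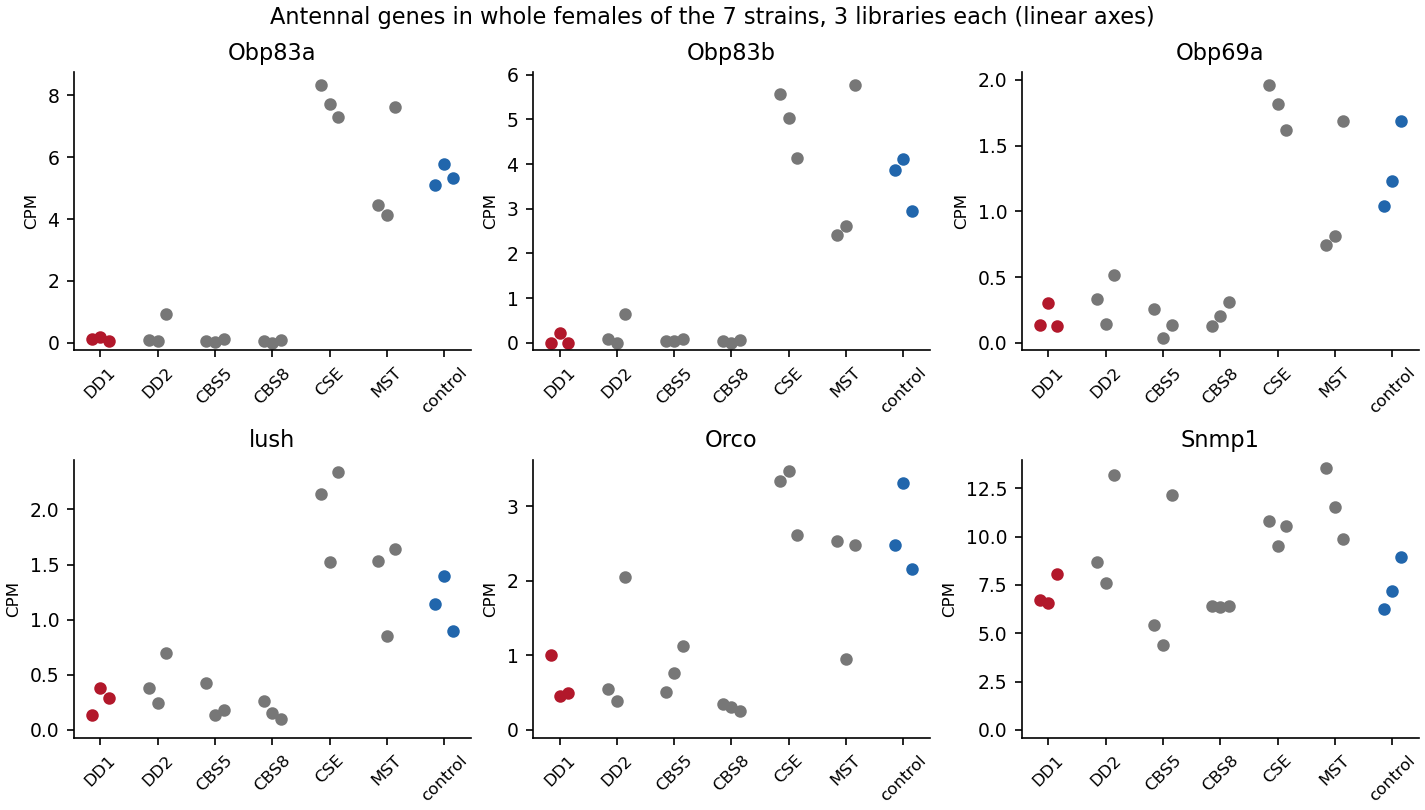
CPM of 6 antennal genes in the 3 libraries of each of the 7 female strains, on linear axes, DD1 in red and control in blue. In Obp83a, Obp83b, Obp69a and lush the strains with a CBS deletion (DD1, DD2, CBS5, CBS8) lie below the CSE, MST and control strains, while Snmp1 overlaps between DD1 and control.

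Called genes were spread over the chromosome arms with the exception of chromosome 4. On X, 2L, 2R, 3L and 3R between 14.7% and 18.4% of the genes tested rose and between 12.5% and 14.8% fell. Of 86 genes tested on chromosome 4, 6.98% rose and 24.4% fell in DD1 females, and without replicate 2 the shares were 3.49% and 19.8%, as a description with no test of the difference between arms. Near the deletions, within 500 kb of Cbs, 5 of 43 genes rose and 4 fell, and within 500 kb of Cth 20 of 111 rose and 14 fell, shares of 20.9% and 30.6% called, against 30.8% of all genes.

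Against CBS(5), the parent strain without the CSE deletion, DD1 females differed in 392 genes, 3.72% of those tested, with 238 higher (2.26%) and 154 lower (1.46%). With the 6 libraries fitted alone it was 54, with 23 higher and 31 lower, and with DESeq2 604. The count was 248 without replicate 2 of DD1, 243 without its replicate 3, 177 without replicate 1 of CBS(5) and 841 without its replicate 3, which had 21.4% of its counts on the class richest outside the thorax, against 31.3% and 30.8% in the other CBS(5) libraries. Cth was the deleted gene between them, with 7.16 to 9.37 CPM in DD1, against 103 to 120.1 CPM in CBS(5) (change -3.79, adjusted p = 2.82e-13). Cyp4p2 had 12.05, 9.45 and 13.4 CPM in DD1 females, against 0.255, 0.0347 and 0.0450 CPM in CBS(5) females (adjusted p = 3.74e-06). CG43055 had no counts in DD1, against 40.1, 45.3 and 20.9 CPM in CBS(5), and CG11034 had 0.131, 0.680 and 0.124 CPM in DD1, against 48.4, 29.5 and 72.1 CPM in CBS(5), with adjusted p of 1.45e-05 and 1.5e-06. Cyp4p2 and CG17470 were high in DD1 and low in CBS(5) and control, and lncRNA:CR45128 and ChLD3 were low in DD1 and at the control level in CBS(5). CG17470 had 14.8, 16.1 and 12.5 CPM in DD1, against 0.596, 0.347 and 0.721 CPM in CBS(5) (adjusted p = 5.85e-09). TotM and CG31955 were the other 2 with the largest increase, at changes of 3.60 and 3.38, and CG31955 was not called against control, with 14.2, 12.1 and 14.2 CPM in DD1 females, against 12.5, 8.10 and 16.6 CPM in control females.

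The strain labelled CSE(8) was the only one with the CSE deletion alone. In several of these genes its levels and those of DD1 lay on the same side of the levels in CBS(5). CSE(8) had 4.72 to 6.39 CPM of Cyp4p2, 8.87 to 11.3 CPM of CG17470 and 0.134 to 0.495 CPM of CG11034. lncRNA:CR45128 and ChLD3 were at 0.169 to 0.315 CPM and 0.845 to 1.56 CPM there, while in CBS(5) they were at 7.62 to 10.5 CPM and 5.72 to 6.07 CPM. CG43055 and CG31955 lay between DD1 and CBS(5), at 3.79 to 8.15 CPM and 5.63 to 7.17 CPM in CSE(8). TotM had 3.03 to 9.54 CPM in CSE(8) and overlapped with CBS(5), at 2.085 to 5.41 CPM. Whether these levels go with the CSE deletion or with the background that came with it cannot be told apart.

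DD1 and DD2, the strains with both deletions, differed in 64 genes, 0.607% of those tested, 30 higher (0.284%) and 34 lower (0.322%) in DD1. With the 6 libraries fitted alone edgeR called 0 genes (1331 at an unadjusted p under 0.05), so no gene named here was called in that fit, and DESeq2 called 360. With the thorax-based scaling 30 were higher and 13 lower. Without replicate 2 of DD2 3894 genes were called. Without replicate 1 or 2 of DD1 the count was 20 and 28, and without replicate 1 or 3 of DD2 it was 26 and 25. Replicate 2 of DD2 had 28.0% of its counts on the class richest outside the thorax, against 19.8% and 16.9% in the other DD2 libraries. The hairpin RNA locus hpRNA:CR32205 had 18.9, 27.8 and 12.6 CPM in DD1, against 4.86, 4.52 and 4.24 CPM in DD2, a change of 2.12 (adjusted p = 0.00118). The cuticle protein gene Cpr72Ec had 9.07, 10.9 and 13.2 CPM in DD1, against 3.39, 1.92 and 3.68 CPM in DD2 (change 1.88, adjusted p = 0.0451). CG31205 had 4.99, 5.48 and 5.67 CPM in DD1, against 52.7, 22.6 and 39.2 CPM in DD2 (change -2.83, adjusted p = 0.000539). CG7542 had 14.0, 9.83 and 7.66 CPM in DD1, against 99.6, 44.1 and 90.7 CPM in DD2 (change -2.90, adjusted p = 0.00742). The groups did not overlap in these 4 genes, which was a condition for naming them. CG13794 and CG12517 were higher and CG14153 and CG10513 lower in DD1, with changes of 1.77, 1.63, -2.90 and -2.28.

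The effect of DD1 in females was set against that in males as the difference of the log2 fold changes, female minus male, in 1 fit of the 42 libraries from whole flies, whose scaling the CPM of males have. It was called for 2911 of 13535 genes (21.5%), 2565 more positive and 346 more negative in females, with a median over all genes of 0.38. With upper-quartile factors the split was 2066 and 698, and with a minimum count of 30 it was 2128 and 689. Without replicate 2 of DD1 females 1352 were called, 1076 more positive and 276 more negative, and without control female replicate 3 the calls were 1870. Ovary markers summed to 43.2 to 66.1 CPM in DD1 males, against 264 to 576 CPM in control males, and the part of this in the count was not tested. The gene a10, of an antennal protein, had 3.50, 2.15 and 1.95 CPM in DD1 females, against 5.25, 5.56 and 6.06 CPM in control females. In males it had 0.402, 0.0643 and 0 CPM in DD1, against 22.4, 24.995 and 23.8 CPM in control, so that the loss was larger in males by 6.17 (adjusted p = 5.63e-08). The size of this difference is uncertain, with DD1 males near 0 CPM. CG43255 had 10.3, 7.86 and 10.9 CPM in DD1 females, against 5.80, 4.37 and 4.37 CPM in control females. In males it had 0.134, 0 and 0 CPM in DD1, against 0.731, 0.838 and 0.975 CPM in control. The difference was 5.19 (adjusted p = 0.00569), and its size is uncertain with 0 CPM in some DD1 male libraries. FBgn0038762 and CG34034 were the other 2 with the largest positive difference, with FBgn0038762 not called (adjusted p = 0.0515) and CG34034 at 2.37 (adjusted p = 0.0213) without replicate 2.

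Several genes that fell in DD1 females did not differ by a call in DD1 males. lncRNA:CR43837 had 0.872, 1.03 and 0.980 CPM in DD1 males, against 0.813, 0.768 and 0.650 CPM in control males. Its difference was -5.04 (adjusted p = 3.19e-08). gNacalpha had 12.1, 11.5 and 12.9 CPM in DD1 males, against 10.6, 10.1 and 12.9 CPM in control males, a difference of -4.23 (adjusted p = 2.67e-05). rst had 7.04, 7.08 and 6.27 CPM in DD1 males, against 5.61, 5.52 and 5.85 CPM in control males, a difference of -3.63 (adjusted p = 3.18e-06). For CG18088 the difference was -3.65 (adjusted p = 0.0027). None of the 4 was called in males (adjusted p from 0.622 to 0.944), although lncRNA:CR43837 and rst had all DD1 males above all control males.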

How the data were processed

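Polyadenylated RNA of whole flies was sequenced by the authors on libraries made with a directional kit from 1000 ng of total RNA. The authors deposited raw read counts per gene for each library, not normalized, and per the labels the submitters' processing used FastQC, Trimmomatic 0.38, STAR 2.5.0a and featureCounts 1.5.0-p1. The genome was dm6, while the annotation and the strand setting of the counting are not given in the sources used here, so reads of overlapping and antisense genes cannot be told apart. Reads on no gene (0.550% to 0.788% in the 6 libraries compared, listed apart with ambiguous reads, 4.08% to 4.47%) were left out. Of 17559 genes listed, 17253 matched Ensembl release 115.

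The 21 whole-female libraries of 7 strains were fitted together with edgeR 4.0.16 (limma 3.58.1, R 4.3.3): filterByExpr with a minimum count of 10 and total of 15, TMM factors, 1 mean per group, quasi-likelihood F test, Benjamini-Hochberg adjustment over all genes tested. SE is the fold change over the root of F. Alternatives were DESeq2 1.42.0, upper-quartile and thorax-based factors, other filters, a fit of the groups compared alone, the replicate block, a minimum fold and leaving out libraries. Tissue and chromosome values without DD1 replicate 2 and single libraries left out of the comparison of the sexes were added after seeing the data.

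The text names, beside Cbs and Cth, the 12 genes that rose and the 12 that fell by most, among those called, free of overlap and averaging 5 CPM or more in 1 group. For the other comparisons it names 4 and 4, and for each list up to 4 called members by adjusted p. Other members and the genes of replicate 2 were named after their values were seen. The comparison, the lists and the tests were chosen with earlier results of these data known. No reference sequence was used here.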

Additional observations from a re-analysis of the deposited data

Results flagged for a closer look

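The effect of DD1 differed between the sexes, by the test of the difference itself in the fit of 42 libraries, for 19 of the genes named as most changed against control or between the sexes (female minus male, log2). It was more positive in females for FBgn0038762 (6.72), a10 (6.17), CG34034 (5.70), CG43255 (5.19), CG32379 (5.06), tut (5.03), CG32686 (4.54), CG32681 (4.44), Obp83a (3.35), Cyp4p2 (2.93), TotA (2.25) and mat (1.79). Among genes named for the other comparisons it was also called, and positive, for CG11034 (4.45), CG17470 (3.97) and CG7542 (2.18). In tut, CG32686 and CG32681 the DD1 males did not differ from the control males by a call, and tut had 4.50 to 5.97 CPM in DD1 males, against 3.98 to 5.66 CPM in control males. For CG32379 the size of the difference rests on 0 counts in every control female library. Its levels in DD1 were 3.94 to 6.39 CPM in females and 5.23 to 7.79 CPM in males, against 0.0813 to 0.390 CPM in control males. CG11034 likewise had 0, 0 and 1 counts in control females. In Obp83a and a10 both sexes were lower in DD1 and males by more, but the sizes rest on levels near 0 CPM. Obp83a had 0.0414 to 0.189 CPM in DD1 females and 0 to 0.201 CPM in DD1 males. Its control levels were 5.11 to 5.77 CPM in females and 34.3 to 38.9 CPM in males. For a10 the DD1 males had 0 to 0.402 CPM. The difference was more negative in females for lncRNA:CR43837 (-5.04), gNacalpha (-4.23), CG18088 (-3.65), rst (-3.63), CG11700 (-3.14), dpr6 (-2.82) and ChLD3 (-1.36). Without replicate 2 of DD1 females, FBgn0038762 had a difference of 2.16 (edgeR adjusted p = 0.0515) and CG34034 one of 2.37 (edgeR adjusted p = 0.0213).

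Reads that fell on more than 1 gene, which no comparison used, took a mean of 4.39% in DD1 females, with every DD1 library above every control library, at 4.33%, 4.38% and 4.47% in DD1 females, against 4.22%, 4.08% and 4.15% in control females.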

How the results depend on the processing

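The count of 3247 genes called in DD1 against control females was 3639 with DESeq2, 3133 with upper-quartile and 3810 with thorax-based factors, 3004 without a filter, 3045 with a minimum count of 30, 4168 with the 6 libraries alone, 1099 at a log2 fold change of at least 1 and 1689 to 2750 with 1 library left out. The share of higher genes, 54.02%, was 64.16% with upper-quartile factors, 82.35% at that minimum fold, and reversed to 17.4% with the thorax-based factors. Against CBS(5) the count of 392 was 604 with DESeq2, 54 with the 6 libraries alone and 177 to 841 with 1 left out. Against DD2 the count of 64 was 360 with DESeq2, 0 by edgeR with the 6 libraries alone (1331 at an unadjusted p under 0.05), and 20 to 3894 with 1 left out. List members called, 346, were 151 at the minimum fold and 198 to 286 with 1 left out, the lowest being 198, 211 and 222 without control replicate 3, DD1 replicate 3 and control replicate 1. The sex difference was called for 1352 to 3465 genes with 1 left out. Of 54 lists, 17 had the opposite majority of calls and 21 a median of the opposite sign with the thorax-based factors; the causes were not tested. For the 24 genes named as most changed against control, 308 of 310 values under other settings kept direction and call.

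With the replicate block the counts were 3380, 401, 95 and 3135 (DD1 against control, CBS(5), DD2, and between the sexes). Deviations of DD1 and control libraries of the same number correlated at -0.101, -0.116 and -0.22 over genes. For different numbers the mean was 0.072. As the deviations were taken within groups of 3 libraries, these values cannot tell whether libraries of the same number shared a batch.

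Depth limits genes near 3 counts, about 0.13 CPM, where a change was not detectable at this depth. With 3 libraries a group, leaving out 1 library moved most counts.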
